A study of Coturnix japonica with 24 samples.

Results

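The afternoon hours are compared here between long and short days in the mediobasal hypothalamus of Japanese quail (Coturnix japonica). The comparison takes the 4 long-day arrays at zeitgeber time (ZT) 10 and 14 and the 4 short-day arrays at the same times, 8 of the 24 arrays of the study, with ZT as a covariate. ZT was read as hours after lights on, since the labels do not define it. On that reading both times were in light under long days and in darkness under short days. These hours were taken to hold the photoinducible phase, the part of the day in which light triggers the long-day response. No label gives its position.

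The birds were males of 8 weeks of age with 4 weeks of short days behind them. Short-day birds stayed for 2 weeks in cycles of 6 h light and 18 h dark. Long-day birds were moved for those 2 weeks to cycles of 20 h light and 4 h dark. No label names any other treatment or genotype. Tissue from 6 birds was taken at each time, 4 h apart over a day. RNA of 3 hypothalami was pooled on each array, so every group is 2 arrays, which the labels call biological replicates.

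In birds, long days raise thyrotropin in the pars tuberalis, the thin sheet of pituitary cells that covers the pituitary stalk. Thyrotropin acts on tanycytes, glial cells lining the floor of the third ventricle, which switch from a deiodinase that destroys thyroid hormone to a deiodinase that activates it. The active hormone made in the hypothalamus then drives the release of gonadotropin-releasing hormone and growth of the gonads.

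Values are centred intensities: the fluorescence of a probe set after each array was set to a common median. A change is the long-day minus the short-day mean of log2(intensity + 1.50), so that a change of 1 is close to a doubling for bright probe sets and understates the change of dim ones. They are given with the moderated standard error (SE) of limma. A probe set passed the test at a Benjamini-Hochberg adjusted p under 0.05 over all 38439 non-control probe sets. Background on an array was the 95th percentile of 746 probe sets without the chicken prefix in their names. The probes are chicken sequences, so levels of different genes were not compared. In pieces of tissue, fewer cells of a type and less RNA per cell cannot be told apart.

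The 8 arrays had deposited medians of 10.9 to 20.0, and 38.1% to 49.1% of their probe sets lay above background. The array numbered 1 was brighter than the array numbered 2 in 12 of 12 groups of the study. In the 4 afternoon groups it was brighter by 1.26 to 1.83 times. Changes are therefore also given within each array number for TSHB, DIO3 and KLF9. For some other genes named below they lay further apart, as for STARD4 (0.35 among arrays numbered 1 and 2.21 among those numbered 2) and GREB1 (1.47 and 0.80). Long-day ZT14 replicate 2 stood apart from the other arrays: its median rank correlation with the other 7 was 0.863, and the log2 ratio of its ACTB control probe sets at the 3′ and 5′ ends, a sign of RNA integrity, was the highest at 2.21. That ratio was 1.94 ± 0.18 (SD, n = 4) in long days and 1.68 ± 0.22 (SD, n = 4) in short days (exact two-sided permutation test within ZT, p = 0.17, adjusted p = 0.67 over 4 array measures). The smallest p this design allows is 0.056. The number of arrays, 4 a side, limits precision.

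Few transcripts differed between photoperiods in the afternoon beyond the spread of the arrays. By limma, 7 of 38439 probe sets passed (0.0182%), of which 6 were higher in long days (0.0156%) and 1 was lower (0.0026%). They were TSHB, DIO2 and KLF9, which rose, DIO3, which fell, and 3 probe sets without a gene symbol, which rose. Without adjustment, 1477 probe sets had a p under 0.05, and 5% of all tested would be 1922. Among the 8961 probe sets above background on all 8 arrays the median SE was 0.32, and the middle of the changes, from the 5th to the 95th percentile, ran from -0.50 to 0.49. Of these brighter probe sets 37 were at least 2-fold higher and 15 at least 2-fold lower, 0.58% together. The values of the 4 long-day arrays did not overlap those of the 4 short-day arrays in 1028 probe sets (2.67%), 513 above (1.33%) and 515 below (1.34%), and in 278 of the 8961 brighter ones (3.1%). Uncentred values gave 2 passing probe sets in place of 7, and a fit that took its spread from all 24 arrays gave 14.

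**Figure D1:**
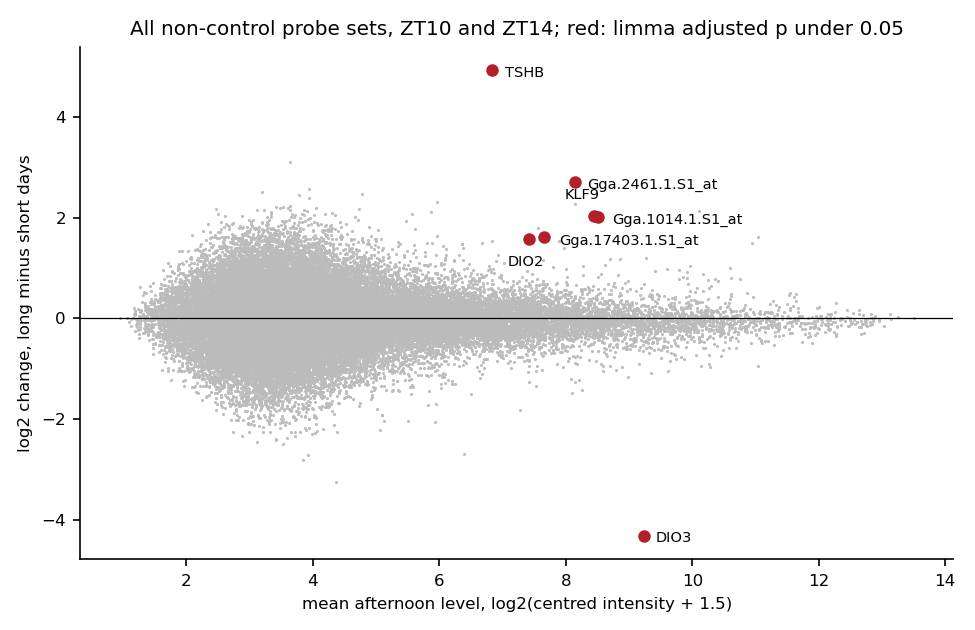
Log2 change between long and short days at ZT10 and ZT14 (vertical axis) against the mean afternoon level, log2(centred intensity + 1.50) (horizontal axis), for 38439 probe sets as grey points. The 7 probe sets with an adjusted p under 0.05, in red and named, lie outside the cloud of points at their level, 6 above it and DIO3 below it.

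TSHB, which encodes the beta subunit that gives thyrotropin its specificity, had the largest rise among the 7 calls. In short days its values were 2.12 and 8.55 at ZT10 and 12.2 and 2.31 at ZT14. In long days they were 139 and 146 at ZT10 and 403 and 189 at ZT14. No short-day array lay above background, and every long-day array did. The mean of 219 in long days was therefore at least 9.97-fold higher than the background of the short-day arrays, where the mean was 6.29. The fitted log2 change was 4.92 ± 0.49 (adjusted p = 0.0012). It was 5.08 among the arrays numbered 1 and 4.76 among those numbered 2. With values under background raised to background the change was 3.35 (adjusted p = 0.25).

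CGA encodes the common alpha chain of thyrotropin and the gonadotropins. Its short-day values were 1022 and 567 at ZT10 and 198 and 172 at ZT14, and its long-day values were 1547 and 1365 at ZT10 and 2496 and 1421 at ZT14. Every long-day array lay above every short-day array, and both short-day arrays at ZT14 lay below both at ZT10. Over both hours the log2 change of 2.14 ± 0.39 did not pass (adjusted p = 0.27). It passed without short-day ZT10 replicate 1 (2.55, adjusted p = 0.027), with the 75th percentile in place of the median for centring (2.14, adjusted p = 0.049) and in the fit of all 24 arrays (2.14, adjusted p = 7.3e-06). In 18 of 23 alternatives it did not pass, among them every other single array left out.

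**Figure D2:**
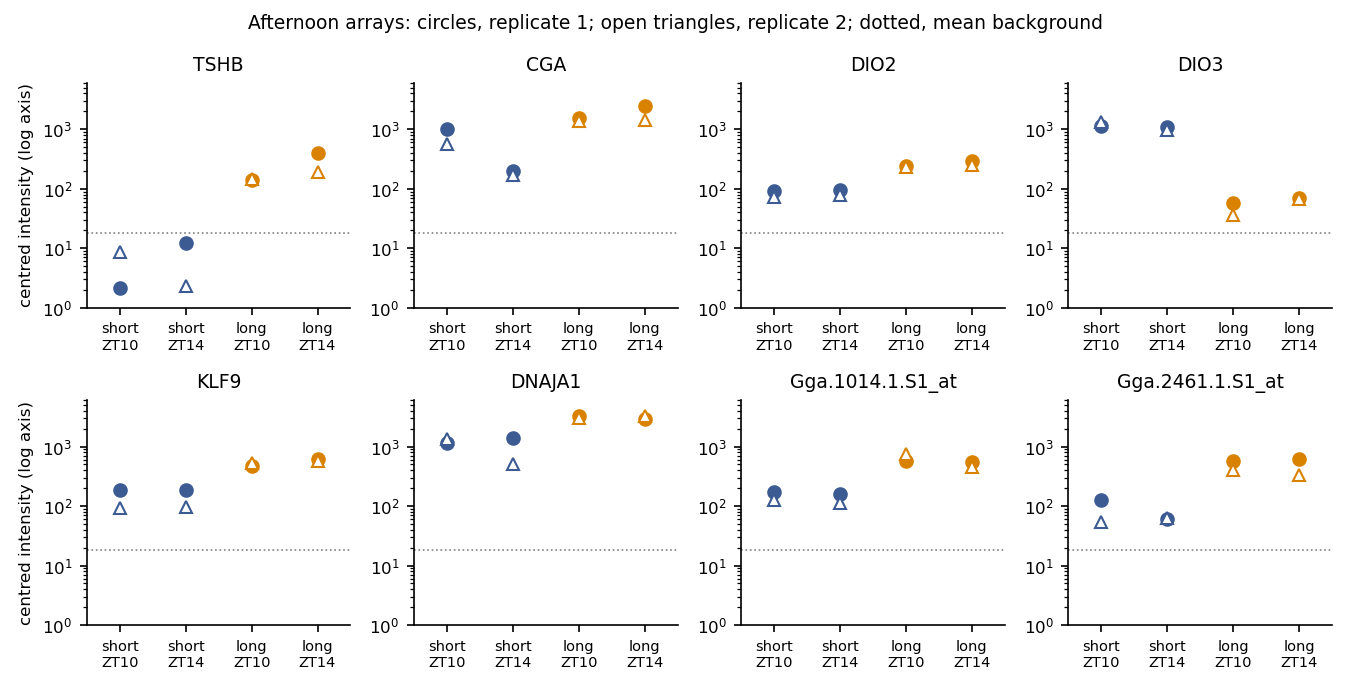
Centred intensity (log axis) of 6 genes and 2 probe sets without a symbol on each of the 8 afternoon arrays, by photoperiod and hour, with filled circles for replicate 1, open triangles for replicate 2 and a dotted line at the mean background. The short-day and long-day arrays do not overlap in any of the 8 panels, TSHB is under background in all 4 short-day arrays, and CGA in short days is lower at ZT14 than at ZT10.

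The thyrotropin list also held its receptor and signals of the pars tuberalis. Of its 11 measured genes 1 passed, TSHB, and 6 were above 0, with a median change of 0.06 against -0.03 for all 13009 genes with a symbol. Of all these genes, 47.1% were above 0, the share to set beside the count of each list. TSHR, the thyrotropin receptor, had 109, 75.9, 88.1 and 39.4 in short days and 37.3, 20.1, 66.8 and 46.9 in long days. The photoperiods overlapped, and the change of -0.88 ± 0.42 did not pass. A dim second TSHR probe set had 0.29 ± 0.49, also with overlap. EYA3, a transcriptional coactivator linked to long-day induction of TSHB in other vertebrates, lay close to background and had 0.06 ± 0.47, which did not pass. CHGA, chromogranin A of secretory granules, had a change of 0.60 ± 0.21 with no overlap between photoperiods and did not pass. Its value was -0.06 as the mean of all its probe sets.

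Tissue from the anterior pituitary next to the sampled area would carry TSHB and CGA as well. Of 10 measured markers of anterior pituitary cells none passed and 5 were above 0, with a median of -0.04. The summed level was 1168 to 1334 in short-day arrays and 1076 to 1273 in long-day arrays, which overlapped. Above background on all 8 arrays were 4 of the 10: POMC, whose values are given below, TBX19, a factor of pituitary corticotrophs (-0.51 ± 0.39), and the prohormone convertases PCSK1 (0.08 ± 0.32) and PCSK2 (0.10 ± 0.18). POMC and the convertases are also made by hypothalamic neurons. On none of the 8 were 3 of the 10, namely GHRHR, the receptor of growth hormone-releasing hormone, POU1F1, the transcription factor of thyrotrophs, lactotrophs and somatotrophs, and FSHB, the beta subunit of follicle-stimulating hormone. GH, growth hormone, was above background on 1 long-day array and PRL, prolactin, on 3 short-day and 2 long-day arrays. The part of pituitary tissue in the values of TSHB and CGA was not tested.

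The deiodinases moved in opposite directions. DIO3, which inactivates thyroid hormone, had 1144 and 1349 at ZT10 and 1105 and 963 at ZT14 in short days. In long days it had 58.0 and 36.2 at ZT10 and 68.9 and 66.5 at ZT14. The lowest short-day array was far above the highest long-day array, and all 8 arrays were above background. DIO3 fell by 4.31 ± 0.25 on the log2 scale, or 19.8-fold (adjusted p = 1.2e-06). The change was -4.12 among the arrays numbered 1 and -4.49 among those numbered 2.

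DIO2, which makes active thyroid hormone, had 91.2 and 72.1 at ZT10 and 94.2 and 79.2 at ZT14 in short days. In long days it had 242 and 234 at ZT10 and 288 and 250 at ZT14. The groups were narrow and did not overlap, and DIO2 rose by 1.58 ± 0.23, or 2.98-fold (adjusted p = 0.038). The size held at 1.52 to 1.65 whichever of the 8 arrays was left out, while the adjusted p was over 0.05 without any single one of them. A dimmer DIO2 probe set had a change of 2.14 ± 0.70 with overlapping values, which did not pass.

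KLF9 encodes a zinc finger transcription factor that thyroid hormone and glucocorticoids induce in brain cells of other vertebrates. It had 185 and 93.9 at ZT10 and 186 and 96.3 at ZT14 in short days, and 462 and 535 at ZT10 and 629 and 578 at ZT14 in long days. The photoperiods did not overlap, although the short-day arrays numbered 1 were near 186 and those numbered 2 near 95. KLF9 rose by 2.03 ± 0.27, or 4.08-fold (adjusted p = 0.015). The change was 1.53 among the arrays numbered 1 and 2.53 among those numbered 2. The call was lost without 5 of the 8 arrays in turn, among them long-day ZT14 replicate 2 (2.03, adjusted p = 0.054).

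These 3 were the only members of the list of deiodination, transport, receptors and targets that passed, 2 higher and 1 lower of 18 measured, with a median change of 0.12. SLCO1C1, the thyroxine transporter of brain vessels and glia, was bright on all 8 arrays and had a change of 0.10 ± 0.31. The receptor THRA lay under background on all 8 arrays and THRB on 7 of 8, so their levels were not measured here.

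Probe sets without a symbol made up the other calls. Gga.2461.1.S1_at had 126 and 53.8 at ZT10 and 61.5 and 61.8 at ZT14 in short days, and 579 and 409 at ZT10 and 627 and 333 at ZT14 in long days, a change of 2.70 ± 0.30 (adjusted p = 0.0025). Gga.1014.1.S1_at had 173 and 128 at ZT10 and 158 and 113 at ZT14 in short days, and 569 and 756 at ZT10 and 542 and 456 at ZT14 in long days, a change of 2.00 ± 0.23 (adjusted p = 0.0025). Neither overlapped between photoperiods. Without long-day ZT10 replicate 2 the adjusted p of Gga.1014.1.S1_at was 0.054. The other, Gga.17403.1.S1_at, was named after its values were seen and had 303 ± 28.7 in long days against 97.2 ± 8.15 in short days (SD, n = 4 each), a change of 1.62 ± 0.22 (adjusted p = 0.018). Without long-day ZT14 replicate 2 the change of Gga.17403.1.S1_at was 1.61 (adjusted p = 0.054). Its call was also lost without long-day ZT14 replicate 1, either long-day ZT10 array or either short-day ZT10 array, each left out in turn. The annotation used here gives no gene for these 3 probe sets.

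Next to these by p stood genes that did not pass. Picking genes by p favours those whose arrays do not overlap between photoperiods, as 2.67% of all probe sets did not. DNAJA1, a cytosolic co-chaperone of heat shock protein 70, had 1142 and 1318 at ZT10 and 1377 and 517 at ZT14 in short days, and 3227 and 3048 at ZT10 and 2950 and 3241 at ZT14 in long days. The long-day arrays were alike and all above the short-day arrays, and the change was 1.61 ± 0.26 (adjusted p = 0.075). It passed in the fit of all 24 arrays (adjusted p = 1.4e-04) and with quantile normalization (1.62, adjusted p = 0.0051).

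TESC, a calcium-binding protein, had a change of 1.20 ± 0.23, and CCK, the neuropeptide cholecystokinin, 1.17 ± 0.25. ETNPPL, an enzyme that breaks down phosphoethanolamine, had 1.64 ± 0.42, and its other probe set 2.31 ± 0.52. SLC13A5, a citrate transporter, had 1.08 ± 0.27, and its other probe sets had 0.57 and 0.81. PHKA1, a subunit of the kinase that switches on glycogen breakdown, had 1.10 ± 0.29. MTRR, methionine synthase reductase, had 1.40 ± 0.34, but its other probe set had -0.03. LOC425001 had 1.50 ± 0.37. None of these passed. The long-day arrays of each lay above all its short-day arrays, as they did in 1.33% of all probe sets. That separation is no added support, since these genes were picked by p in the same arrays.

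On the lower side DIO3 was the only call. The next was FAM237A, with 62.4, 64.4, 49.0 and 37.8 in short days and 19.5, 20.1, 9.93 and 4.15 in long days, a change of -2.04 ± 0.43, with 2 of 4 long-day arrays above background. The photoperiods did not overlap, as in the 1.34% of all probe sets with long days below short days, and the change did not pass (adjusted p = 0.66). POMC, the precursor of melanocortins and of adrenocorticotropin, had 229, 305, 242 and 212 in short days and 91.5, 149, 135 and 106 in long days, again without overlap, a change of -1.04 ± 0.25. NRP2, a receptor of semaphorins, had -1.06 ± 0.23, with 217, 211, 246 and 227 in short days and 90.7, 92.7, 128 and 123 in long days. Its other probe sets, which are dim, had 0.29 and -0.66.

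BCL6, a transcriptional repressor, had -1.08 ± 0.26, and its other probe set -0.71. FABP7, the brain fatty acid-binding protein of radial glia, had -0.84 ± 0.21. COLQ, the collagen tail that anchors acetylcholinesterase, had -0.93 ± 0.26, with a dim second probe set at 0.20. PCMT1, which repairs damaged aspartate residues, had -1.02 ± 0.26, but another of its probe sets, above background on all 8 arrays, had 0.32. INPP5E, an inositol phosphatase of the primary cilium, had -1.12 ± 0.32 and GSTZ1, an enzyme of tyrosine breakdown, -0.78 ± 0.23. NADSYN1, NAD synthetase, had -2.24 ± 0.64 with 1 of 4 long-day arrays above background. GPR20, an orphan receptor, was at least 1.56-fold lower in long days, where no array was above background. None of these passed.

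Neuropeptides and reproductive genes other than those above showed no call. Of 23 feeding and other hypothalamic peptides none passed, and the median was -0.06. NPY, the orexigenic neuropeptide Y, was at 3643 to 5587 in short days and 2768 to 3855 in long days, which overlapped, with a change of -0.34 ± 0.19. AGRP, which is made in the same neurons, had -0.13 ± 0.44, and VIP, vasoactive intestinal peptide, 0.16 ± 0.19. Of 16 genes of reproductive peptides, steroid receptors and the prolactin axis none passed, 12 were above 0, and the median was 0.11. GREB1, a target of oestrogen receptors, had 1.14 ± 0.34 and passed at the other hours of the day (1.06, adjusted p = 0.0031). ESR2, an oestrogen receptor, had -0.73 ± 0.36 and PRLR, the prolactin receptor, 0.59 ± 0.32. CYP19A1, aromatase, had 0.52 ± 0.37, and its dimmer probe set had 0.85 ± 0.40 without overlap, which did not pass. NPVF, the precursor of gonadotropin-inhibitory hormone, had 0.00 ± 0.27. GNRH1, gonadotropin-releasing hormone, was above background on 2 arrays of each photoperiod, so its change of 0.35 ± 0.67 says little.

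The lit and dark afternoons were also compared for clock genes. None of 6 core clock activators and none of 7 repressors passed, with medians of 0.09 and 0.05. PER2, a repressor that light induces in several vertebrate tissues, had 20.4, 13.6, 11.3 and 21.4 in short days and 38.9, 37.3, 37.0 and 31.1 in long days. The photoperiods did not overlap, but the probe set is dim, with 2 of 4 short-day arrays above background, and the change of 1.08 ± 0.42 did not pass. The other PER2 probe sets had -0.91 to 0.42. NR1D2, a nuclear receptor that represses clock activators, had 325 and 195 at ZT10 and 679 and 527 at ZT14 in short days against 557 and 534 and then 629 and 545 in long days, a change of 0.54 ± 0.26. CRY2 had 0.62 ± 0.40, CRY1 -0.01 ± 0.22, CLOCK 0.20 ± 0.24, ARNTL 0.05 ± 0.30 and PER3 -0.30 ± 0.53. A second CLOCK probe set had 0.55 ± 0.23 without overlap, and a second of CRY1 0.75 ± 0.43 with overlap. Both were above background on all 4 arrays of each photoperiod, and neither passed. Other ARNTL probe sets had -1.29 to 0.21 and other PER3 probe sets -0.18 to 0.52.

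Genes that respond within minutes to neuronal activity did not pass either. Of 16 immediate early genes 11 were above 0, with a median of 0.30 (all genes -0.03). Their median was 0.31 at ZT10, -0.02 at ZT14 and 0.26 at the other hours of the day. FOS had 6.04, 22.9, 17.5 and 17.4 in short days and 33.7, 22.3, 17.1 and 17.9 in long days, near background and overlapping, a change of 0.55 ± 0.53. EGR1 spanned 98.2 to 606 in short days and 57.9 to 922 in long days, where the lowest value was that of ZT14 replicate 2, and had 0.32 ± 0.73, or 1.34 without that array. DUSP1, a phosphatase of MAP kinases, had 0.44 ± 0.26, CREM, a cAMP-responsive regulator, 0.35 ± 0.21 and HOMER1, a synaptic scaffold, 0.32 ± 0.24. Of 15 photoreceptor and melatonin genes none passed and 4 were above 0, with a median of -0.13, and 1 of the 15 lay above background on all 8 arrays. OPN5, the deep-brain photoreceptor of ultraviolet and violet light, had -0.04 ± 0.45 near background. AANAT, an enzyme of melatonin synthesis, had 0.65 ± 0.50.

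Among lists of stress and metabolism, 1 gene passed, KLF9, which is also in the list of 20 glucocorticoid and fasting induced genes. The median of that list was 0.11, and 11 of 20 were above 0. FKBP5, a co-chaperone induced by glucocorticoids, had 1.25 ± 0.44 with overlap between photoperiods, and its other probe sets had 2.07 and 1.50 without overlap, none of which passed. Of 25 cytosolic heat shock and cold shock genes none passed, 16 were above 0, and the median was 0.17. Their summed level was 13738 to 18725 in short-day arrays and 19964 to 21044 in long-day arrays, which did not overlap. That sum includes DNAJA1, whose values are given above and whose change of 1.61 was the highest of the list. The mean log2 level of the list was 7.05 to 7.71 in short-day arrays and 7.36 to 7.70 in long-day arrays, which overlapped. HSP90AA1, a main cytosolic chaperone, had 0.31 ± 0.18, AHSA1, which activates it, 0.43 ± 0.23 and HSPA2 0.41 ± 0.27.

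Of 19 endoplasmic reticulum folding genes none passed, and the median was -0.07. HERPUD1, which takes part in degrading misfolded proteins, had 60.4, 70.8, 75.4 and 42.3 in short days and 132, 115, 116 and 114 in long days, without overlap, a change of 0.95 ± 0.28. HSPA5, the main chaperone of that compartment, had 1763, 1574, 1766 and 1689 against 2243, 2226, 2426 and 2237, also without overlap, a change of 0.43 ± 0.16. CRELD2 had 0.61 ± 0.28 and SDF2L1 0.79 ± 0.46. In the 16 arrays of the other hours HERPUD1 had -0.03 and HSPA5 0.00, but these values average opposite signs. HERPUD1 had -0.39 ± 0.27 at ZT2 and ZT6 and 0.34 ± 0.27 at ZT18 and ZT22. HSPA5 had -0.44 ± 0.14 and 0.44 ± 0.14 at those times. None of these changes passed, and the afternoon differed from the other hours in neither gene by the test given below.

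Cholesterol synthesis genes had 6 of 21 above 0 (all genes 47.1%) and a median of -0.25. SQLE, squalene epoxidase, was at -0.67 ± 0.27 and FDFT1, squalene synthase, at 0.74 ± 0.34. STARD4, a cholesterol carrier, had 1.28 ± 0.51. Cytosolic ribosomal protein genes had 19 of 60 above 0 and a median of -0.09, with RPS3 at -0.36 ± 0.16. RPL38, at 1.50 ± 0.50, and RPL37A, at 0.84 ± 0.32, went the other way, both with overlap between photoperiods. The summed level of the list was 155830 to 165360 in short-day arrays and 145300 to 153850 in long-day arrays, which did not overlap. Its mean log2 level was 10.39 to 10.65 in short-day arrays and 10.29 to 10.55 in long-day arrays, which overlapped. Mitochondrial respiratory chain genes had 18 of 50 above 0 and a median of -0.08, and proteasome genes 10 of 30 and -0.10. Glycolysis and glycogen breakdown genes had 13 of 20 and 0.10. Neurite outgrowth, synapse and perineuronal net genes had 16 of 36 and -0.06, with DCLK1, a kinase bound to microtubules, at -0.46 ± 0.16. Clock output factors had 5 of 9 and 0.07. None of the genes in these lists passed.

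**Figure D3:**
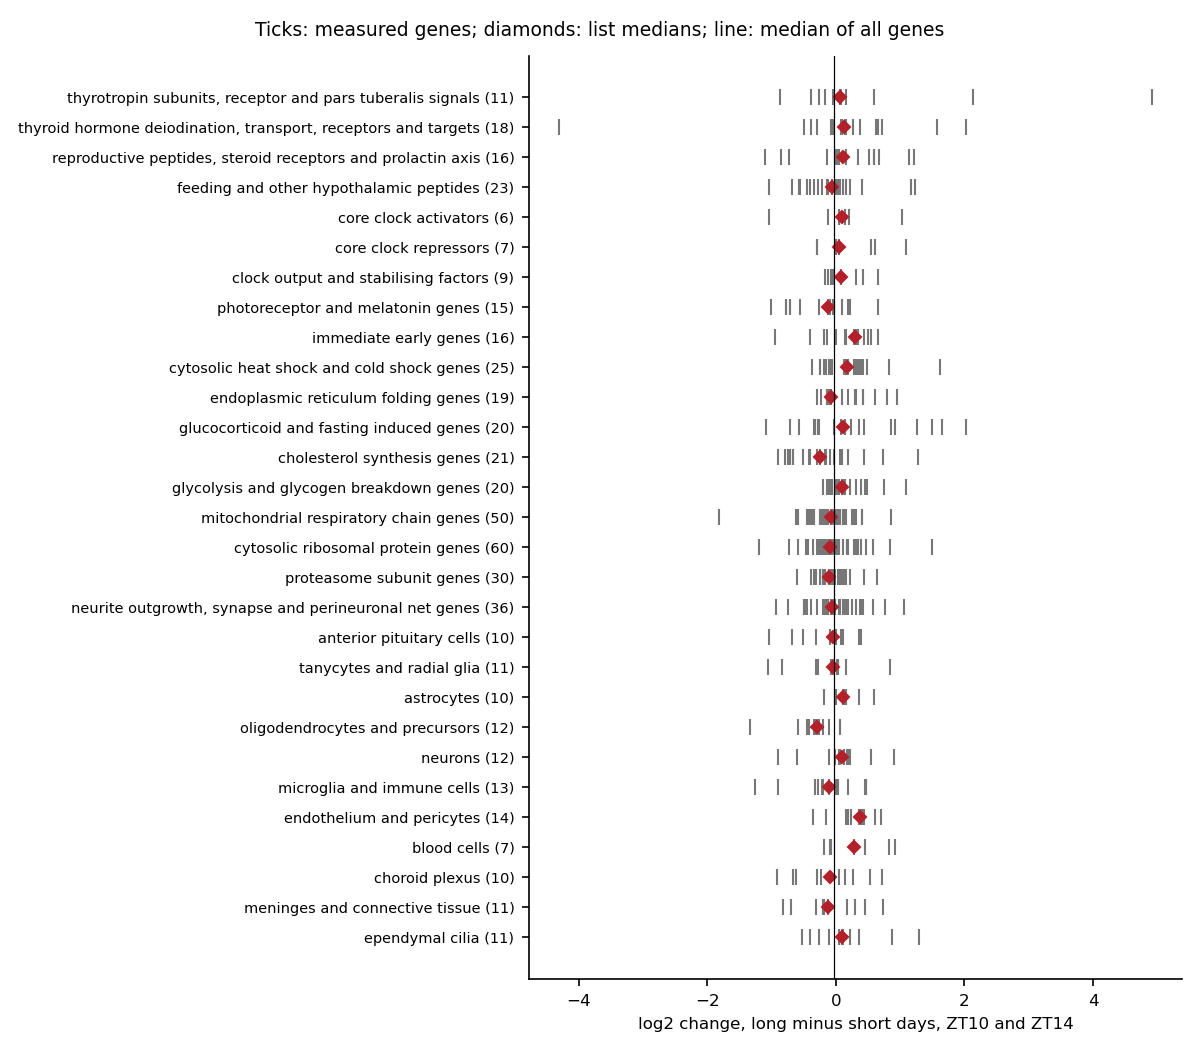
Log2 change between long and short days at ZT10 and ZT14 (horizontal axis) for each measured gene of 29 lists, with the number measured in brackets, as grey ticks, and list medians as red diamonds. The list medians lie between -0.30 and 0.37 around the vertical line at the median of all genes, and the ticks farthest out are TSHB at 4.92 and DIO3 at -4.31.

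Markers of cell types were compared as well. Of 11 tanycyte and radial glia markers none passed and 5 were above 0, with a median of -0.05 and changes from -1.05 to 0.84. FABP7 had the value given above, and CRABP1, which binds retinoic acid, had -1.05 ± 0.40. Of 10 astrocyte markers 7 were above 0, with a median of 0.11 and GLUL, glutamine synthetase, at 0.35 ± 0.19. Of 12 neuronal markers 8 were above 0, with a median of 0.10. GAD1, which makes GABA, had 0.91 ± 0.39, and SLC32A1, which loads it into vesicles, -0.90 ± 0.37, or -0.42 without long-day ZT14 replicate 2.

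Endothelium and pericyte markers had 12 of 14 above 0 (all genes 47.1%) and a median of 0.37, the highest of the 29 lists, and none passed. Their median was 0.42 at ZT10, 0.12 at ZT14 and 0.08 at the other hours of the day. Their summed level was 1589 to 2174 in short-day arrays and 2360 to 2994 in long-day arrays, which did not overlap. That sum includes EPAS1, whose values are given next and make up a large part of it. The mean log2 level of the list reached 5.97 in short-day arrays and began at 5.81 in long-day arrays, so it overlapped. EPAS1, a hypoxia-responsive factor of vessels, had the smallest p among the probe sets that stand for the genes of the list, with 993, 889, 1128 and 896 in short days and 1381, 1405, 1743 and 1417 in long days, a change of 0.61 ± 0.18. A dimmer EPAS1 probe set had 356 ± 82.5 in long days and 140 ± 58.8 in short days (SD, n = 4 each), without overlap, a change of 1.40 ± 0.30. It did not pass in the afternoon (adjusted p = 0.66) and passed at the other hours (1.33, adjusted p = 7.6e-04). SLC2A1, the glucose transporter of brain vessels, had 0.39 ± 0.33. Of the defining markers, CLDN5 was above background on 7 of 8 arrays and PECAM1 on 2. Across the 29 lists, summed levels were separated only in the vessel, heat shock and ribosomal protein lists, and overlapped in all others. The part that vessel content has in the other results was not tested.

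Oligodendrocyte markers had 2 of 12 above 0 and a median of -0.30, with PDGFRA, a receptor of their precursors, at -0.59 ± 0.37. Without long-day ZT14 replicate 2 their median was -0.08. Microglia and immune markers had 6 of 13 above 0 and a median of -0.10, with C1QB, a complement subunit, at -0.89 ± 0.33. Blood markers had 4 of 7 and 0.28, choroid plexus 5 of 10 and -0.09, meninges and connective tissue 4 of 11 and -0.13, and ependymal cilia 7 of 11 and 0.09. No gene in these lists passed.

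The afternoon hours were then taken apart, in the fit that gives each of 12 groups its mean. At ZT10, 4 probe sets passed (0.0104%), and at ZT14, 7 passed (0.0182%). DIO3 changed by -4.72 ± 0.41 (adjusted p = 8.4e-07) at ZT10 and -3.90 ± 0.41 (adjusted p = 1.9e-05) at ZT14. TSHB changed by 4.57 ± 0.71 (adjusted p = 0.010) and 5.27 ± 0.71 (adjusted p = 0.0014), and Gga.1014.1.S1_at by 2.13 ± 0.28 (adjusted p = 0.0012) and 1.88 ± 0.28 (adjusted p = 0.0047). CGA had 0.93 ± 0.31 at ZT10, which did not pass, and rose by 3.34 ± 0.31 at ZT14 (adjusted p = 4.0e-06). The other calls at ZT14 were Gga.2461.1.S1_at (2.86), KLF9 (2.16) and DNAJA1 (1.87).

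The fourth call at ZT10 was a dim probe set of NEO1, named after its values were seen, at 3.76 ± 0.54 (adjusted p = 0.0046). The brighter probe set of NEO1 had -0.31 at ZT10, so the probe sets disagree. Without short-day ZT10 replicate 1, 66 probe sets passed at ZT10, and without long-day ZT14 replicate 1, 315 passed at ZT14. Where such an array is left out, its group is 1 array that is assumed to vary like the others.

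The difference between the photoperiod changes at ZT14 and ZT10 passed in 0 of 38439 probe sets by limma (0%), with 1623 at an unadjusted p under 0.05. The largest differences by p were those of the dim NEO1 probe set (-4.73, adjusted p = 0.089) and of CGA (2.41 ± 0.44, adjusted p = 0.15). In short days CGA was at 795 on average at ZT10 and 185 at ZT14, while in long days it was at 1456 and 1958. Without long-day ZT14 replicate 1 the count for the difference was 96.

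The same comparison in the 16 arrays of ZT2, ZT6, ZT18 and ZT22, which share none with the afternoon, gave 31 passing probe sets (0.0806%), 20 higher (0.052%) and 11 lower (0.0286%). Of the 7 afternoon calls 6 passed there with the same sign (85.7%), and they are 19.4% of the 31. The exception was Gga.1014.1.S1_at. All 31 had the same sign in the afternoon, and 27 of them had an unadjusted p under 0.05 there. The other 4 included CYP19A1, at 1.19 ± 0.23 in the other hours and 0.52 ± 0.37 in the afternoon, with a difference of -0.67 ± 0.41 that did not pass.

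Genes that had missed the threshold in the afternoon passed at the other hours in part. Of the 9 named as next by p on the higher side 8 had the same sign there and 5 passed, namely DNAJA1 (adjusted p = 3.4e-04), CGA (1.71), TESC (1.02), CCK (1.43) and ETNPPL (1.38). Of the 11 on the lower side 10 had the same sign and 5 passed, namely FAM237A (-1.65), BCL6 (-1.10), POMC (-1.04), FABP7 (-1.01) and COLQ (-0.98). Some of these changes were uneven over the other hours in the fit of all 24 arrays. DNAJA1 had 0.54 ± 0.20 at ZT2 and ZT6, which did not pass, and 1.45 ± 0.20 at ZT18 and ZT22, which passed. ETNPPL had 2.03 ± 0.36 and 0.73 ± 0.36 at those times, and BCL6 -1.52 ± 0.21 and -0.68 ± 0.21, and in both only the first passed. MTRR had -0.15 ± 0.30 and NADSYN1 0.01 ± 0.51 in the other hours. NRP2 had -0.26 ± 0.21, PCMT1 -0.20 ± 0.19 and INPP5E -0.04 ± 0.22 there, and the difference between afternoon and other hours did not pass for any of them.

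**Figure D4:**
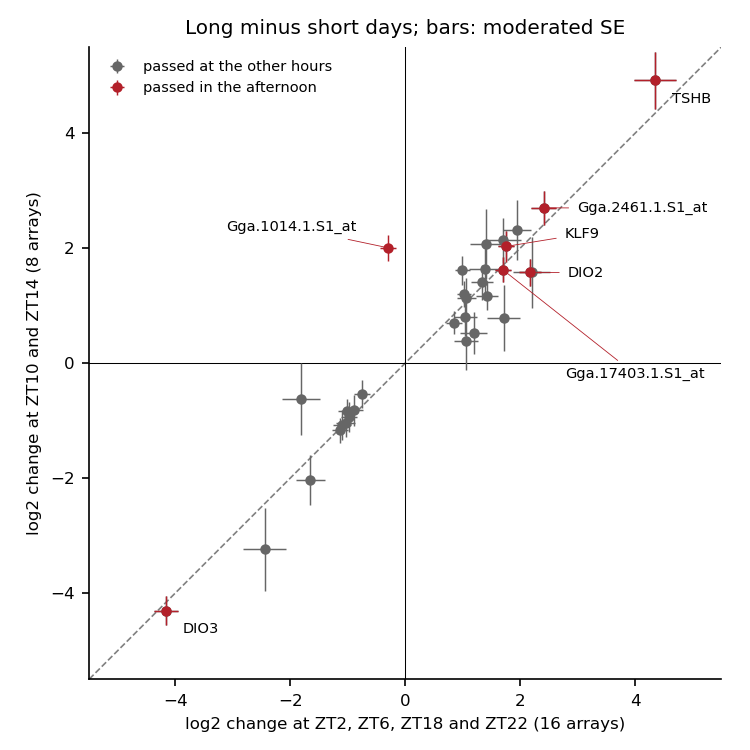
Log2 change between long and short days at ZT10 and ZT14 (vertical axis, 8 arrays) against that at the other 4 times (horizontal axis, 16 arrays), with moderated SE bars, for probe sets that passed in the afternoon (red, named) or at the other hours (grey). Most lie near the dashed line of equal change, CYP19A1 and a few others in grey lie off it toward 0 in the afternoon, and Gga.1014.1.S1_at, at 2.00 in the afternoon and -0.29 in the other hours, is the one whose difference passed the test.

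The test of the afternoon change minus the change at the other hours passed in 1 of 38439 probe sets (0.0026%), Gga.1014.1.S1_at. The difference was 2.30 ± 0.24 (adjusted p = 4.1e-05). Taken against ZT2 and ZT6 alone it was 2.22 ± 0.28 (adjusted p = 0.0012), and against ZT18 and ZT22 alone 2.38 ± 0.28 (adjusted p = 3.2e-04). The change at the other hours was -0.29 ± 0.14, which did not pass. Its mean in short days was 965 and 684 in the morning (ZT2 and ZT6), 151 and 136 in the afternoon, and 373 and 759 late in the day (ZT18 and ZT22). In long days it was 655, 751, 662, 499, 374 and 449 at the same times in order. The 4 short-day afternoon arrays, at 113 to 173, were lower than each of the other 20 arrays, of which the lowest was at 295. Each mean stands on 2 arrays, which at ZT18 were 447 and 298 in short days and 295 and 452 in long days.

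**Figure D5:**
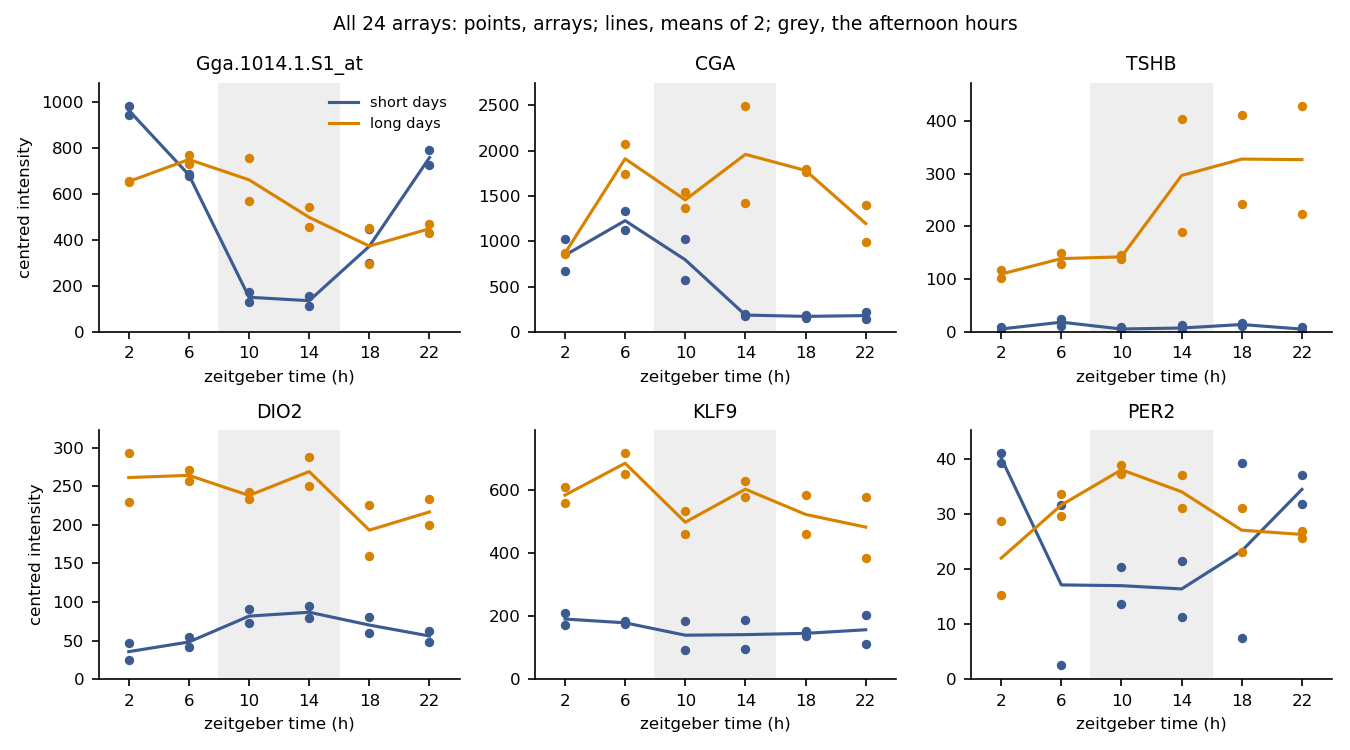
Centred intensity (vertical axis) by zeitgeber time in hours (horizontal axis) on all 24 arrays, with points for arrays and lines for means of 2, short days in blue and long days in orange, and a grey band over the afternoon hours. Gga.1014.1.S1_at in short days falls to 151 and 136 in the band and returns to 759 at ZT22, while TSHB, DIO2 and KLF9 are separated at all 6 times.

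The thyroid hormone genes did not differ between the afternoon and the other hours by that test. The difference was -0.14 ± 0.35 for DIO3, 0.57 ± 0.61 for TSHB, 0.27 ± 0.30 for KLF9 and -0.59 ± 0.30 for DIO2. DIO2 in short days averaged 35.6 and 48.1 in the morning and 81.6 and 86.7 in the afternoon. Its change was 2.66 ± 0.25 in the morning (adjusted p = 2.0e-06), where 0.0364% of probe sets passed, against 1.58 in the afternoon. The difference from the morning, -1.08 ± 0.35, did not pass. CGA had 0.35 ± 0.22 at ZT2 and ZT6 and rose by 3.06 ± 0.22 at ZT18 and ZT22 (adjusted p = 1.8e-08), where 0.0234% of probe sets passed. The afternoon values of CGA, 0.93 and 3.34, lay near the morning value at the first hour and near the late value at the second. PER2 in short days averaged 40.2 at ZT2 and 16.4 at ZT14, and in long days 34.1 at ZT14, and the afternoon minus the other hours was 0.88, which did not pass.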

How the data were processed

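RNA from the mediobasal hypothalamus was hybridised to Affymetrix chicken arrays, per the labels. The authors deposited 1 linear intensity per probe set and array; GCOS 1.2 is named in the submitters' processing notes, and no source used here states its settings or a scaling. From the 38535 deposited intensities per array, 96 controls were left out. The rest were taken as log2(intensity + 1.50), with 10% of the median as pseudocount, and each array was centred on its median. No filter on dim probe sets was applied. limma 3.58.1 in R 4.3.3 (lmFit and eBayes with a trend) fitted photoperiod and ZT to the 8 afternoon arrays (5 residual degrees of freedom), a mean for each group to all 24 arrays (12) and photoperiod and ZT to the 16 other arrays (11). Calls used Benjamini-Hochberg adjustment over all probe sets. Code was tested on simulated data. Figures used matplotlib 3.10.9.

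GEO's platform annotation, which can be old, gave 1 symbol to 27168 probe sets, several to 177 and none to 11094. The brightest probe set on average over 24 arrays stood for a gene. Named were 12 genes in each direction, first those that passed by size and then others by p, up to 6 by p for each further test, up to 2 probe sets without a symbol, 29 set genes and up to 4 members of each list by p. Other pituitary and vessel markers, THRA and THRB were named after their values were seen. Members and lists were chosen with earlier results of these data known. The labels share replicate numbers between groups, but the deviations of same-numbered arrays correlated at 0.036 to 0.12 in 6 pairs of groups, 3 of them over 0.1. All would have to be over 0.1 for the numbers to be taken as pairs, so they were not. The array numbered 1 was still the brighter in 12 of 12 groups. The main fits hold no term for array number, and adding one, the replicate block, changed several counts, as given below. Alternatives were other pseudocounts, scalings, filters, eBayes settings, weights, the replicate block, each array left out and each array number alone. No promoter or probe sequence was analysed here.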

Additional observations from a re-analysis of the deposited data

Results flagged for a closer look

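The photoperiod change of Gga.1014.1.S1_at differed between the afternoon and the other hours by a test of the difference itself, at 2.30 ± 0.24 on the log2 scale (limma, adjusted p = 4.1e-05). Its afternoon change of 2.00 stood against -0.29 at the other hours. Leaving out any single array gave 2.18 to 2.42. The difference did not pass without centring or without the trend in eBayes. Groups at 1 hour held 2 arrays, so no test for a single outlying array was made.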

How the results depend on the processing

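DIO3 passed the afternoon test under each alternative tried, and TSHB, DIO2, KLF9 and Gga.1014.1.S1_at kept their direction in each. All 4, and Gga.2461.1.S1_at as well, lost the call with a floor at background or with eBayes without a trend. DIO2, KLF9, Gga.1014.1.S1_at and Gga.2461.1.S1_at lost it uncentred. Gga.17403.1.S1_at lost it uncentred, without a trend, without the dimmest 50% of probe sets and without any of several single arrays, as named above. DIO2 also lost it with a pseudocount of 16 (1.42, adjusted p = 0.38), without the dimmest 25% (0.059) or 50% (0.098) of probe sets, with robust eBayes (0.079) and in the arrays numbered 2 alone (0.093), and KLF9 without the dimmest 50% (0.076). The afternoon count of 7 became 10 with quantile normalization, 9 with the 75th percentile and 14 with all 24 arrays in the fit. The same count became 2 uncentred, 4 without the dimmest 50% of probe sets, 2 with values under background raised to it and 1 without a trend. It was 79 in the arrays numbered 1 alone and 30 in those numbered 2 alone, and 3 to 9 when single arrays were left out, the lowest without long-day ZT10 replicate 2. It was 4 without short-day ZT10 replicate 2, long-day ZT10 replicate 1 or either long-day ZT14 array. With the replicate block it was 8, and the counts at ZT10, at ZT14 and for their difference were 8, 13 and 4. The block also brought DNAJA1 past the threshold (adjusted p = 0.029). Same-numbered arrays are not known to be pairs. At ZT10 the count of 4 became 2 with a pseudocount of 16, 9 with quantile normalization, 2 uncentred, 7 with the 75th percentile, 40 with the floor and 2 without a trend, and 3 to 66 without single arrays. At ZT14 the count of 7 became 4 with a pseudocount of 16, 3 uncentred, 40 with the floor and 2 without a trend, and 2 to 315 without single arrays. It was 75 without short-day ZT14 replicate 1 and 2 without short-day ZT14 replicate 2. The difference between these hours went from 0 to 4 with quantile normalization or the 75th percentile, 1 without the dimmest 50%, 32 with the floor, and 0 to 96 without single arrays. Afternoon minus other hours went from 1 to 0 uncentred or without a trend, 38 with the floor and 1 to 10 without single arrays, the highest without long-day ZT14 replicate 1. At the other hours the count of 31 became 12 uncentred, 19 with the floor and 11 without a trend, and 25 to 34 without single arrays. Quantile normalization gave 40 at the other hours and 10 at ZT14, and the 75th percentile gave 35 and 8. The causes were not tested.

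Some genes turned sign, none of which passed. Not all were near 0 in the main fit, where EGR1 had 0.32, GNRH1 0.35, PER3 -0.30 and CHGA 0.60. NPVF had -2.03e-05 and -0.00305 with pseudocounts of 1 and 16, -0.023 uncentred and -0.016 in the arrays numbered 1. CRY1 had 0.00445 with quantile normalization, 0.00104 with the 75th percentile, 0.019 with array weights and 0.37 as the mean of its probe sets. EYA3 had -0.10 with the floor, -0.18 in the arrays numbered 2 and -0.035 as the mean of its probe sets. SLCO1C1 had -0.012 with array weights and -0.52 in the arrays numbered 1, where CLOCK had -0.015. In the arrays numbered 2, PER3 had 0.029, GNRH1 -0.90 and AGRP 0.10. As means of all probe sets PER3 had 0.092, ARNTL -0.49 and CHGA -0.057. Without single arrays the ranges were -0.50 to 0.37 for AGRP, -0.16 to 0.26 for ARNTL, -0.13 to 0.12 for CRY1, -0.51 to 1.34 for EGR1, -0.23 to 0.19 for EYA3, -0.22 to 0.80 for GNRH1, -0.20 to 0.29 for NPVF, -0.13 to 0.15 for OPN5, -0.57 to 0.0059 for PER3, -0.25 to 0.37 for SLCO1C1 and -0.0060 to 0.27 for VIP. The median of the tanycyte list was above 0 with quantile normalization. Dim probe sets near background had only 2 arrays per group and hour behind them.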
